A study of Homo sapiens with 10 samples.

Results

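The products of 10 human genes load peptide onto class II molecules of the major histocompatibility complex (MHC) or switch the class II genes on, and these genes were described in human microglia (hMG) taken from mouse brain. They were chosen by name and role from the 36591 human genes of the count table, with earlier results of these data known. The 10 comprise CD74, HLA-DMA, HLA-DMB, HLA-DOA, IFI30, LGMN, CIITA, RFX5, RFXANK and RFXAP, and all 10 were among the 15455 human genes tested. The table spells the HLA symbols with a point, as in HLA.DMA, HLA.DMB and HLA.DOA.

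The hMG came from the embryonic stem cell line H9 and were grafted at postnatal day 4 into newborn mice that had been given a CSF1R inhibitor to remove their own microglia. Bulk RNA was sequenced from cells sorted as CD11b+ and human CD45+ at 6 months of age. All hosts lack Rag2, and so mature lymphocytes, and carry a human CSF1 knock-in (Rag2KO-hCSF1KI in the labels). The 5 control mice also carry a humanized Aβ in App (AppKI in the labels, here AppHu), whereas the 5 AppSAA mice carry the same humanized sequence with the Swedish, Arctic and Austrian mutations and form plaques. The comparison asks how plaque-bearing brain changes the grafted cells. All values come from 1 human line, so mice are the replicates and human donors are not.

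Class II molecules present peptides from endocytosed proteins to CD4+ T cells. The αβ dimers are assembled with the invariant chain CD74, which blocks the groove and steers them to late endosomes. There proteases trim CD74 to a remnant named CLIP, HLA-DM (HLA-DMA with HLA-DMB) exchanges CLIP for peptide, and HLA-DO (HLA-DOA with HLA-DOB) inhibits HLA-DM. Transcription of the whole set depends on the RFX complex of RFX5, RFXANK and RFXAP, which binds the promoters, and on CIITA, the inducible coactivator that this complex recruits. Resting microglia express little class II, and the set is known to increase when they are activated.

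Libraries held 25040739 to 39641854 counts, of which 24165871 to 38325734 fell on human genes and 2.12% to 4.97% on mouse genes. The 10 markers of microglia, such as P2RY12, CX3CR1 and CSF1R, summed to 35689 to 47190 CPM (counts scaled by library size) in every library, which matches the label. Of these 10, 9 had a negative log2 fold change against 49.5% of all genes. In edgeR 0 passed, and 3 were lower at an unadjusted p under 0.05 against 3.80% of all genes. The B cell genes MS4A1, CD79B and PAX5 had at most 7 counts in any library, and the dendritic cell genes FLT3, CD1C, XCR1 and CCR7 at most 40. The other 4 dendritic cell markers summed to 27.6 to 67.8 CPM in AppHu and 30.8 to 88.6 CPM in AppSAA. Most of this sum was FCER1A, with means of 40.5 CPM in AppHu and 57.5 CPM in AppSAA. CLEC9A, CLEC10A and ZBTB46 had means of 1.42, 0.63 and 5.67 CPM in AppHu and 1.70, 0.30 and 7.79 CPM in AppSAA. Of the monocyte genes, FCN1 was at 0 in all libraries and S100A8 reached 456 counts in AppSAA replicate 4. Markers of border macrophages, cells at vessels and meninges that normally carry class II, were present. Their 7 genes summed to 3507 to 4125 CPM in AppHu and 2964 to 3809 CPM in AppSAA, and 6 of the 7 had a negative log2 fold change. The largest means in AppHu were those of STAB1 (1941 CPM) and MRC1 (1236 CPM), while CD163, F13A1 and CD209 were at 50.9, 87.5 and 31.9 CPM. MRC1 stood at -0.43 (standard error 0.11, edgeR adjusted p = 0.185, DESeq2 adjusted p = 0.0364), and LYVE1 at -0.48 (standard error 0.16, edgeR adjusted p = 0.321). The part of these cells in the class II values below was not tested. In bulk RNA, fewer cells of a type and less RNA per cell cannot be told apart.

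CD74, HLA-DMA and HLA-DOA were higher in every AppSAA library than in any AppHu library, HLA-DMB and LGMN had almost the same mean in both groups, and the RFX subunits differed by less than their spread. None of the 10 genes passed the threshold of 0.05 after Benjamini-Hochberg adjustment over all genes in edgeR (quasi-likelihood), where 0.0776% of human genes passed. In DESeq2, run on the same counts, CD74 and HLA-DOA passed, 2 of 10 against 0.990% of all genes in that direction, and in limma-voom 0 passed. Groups without overlap and higher in AppSAA were found for 3 of 10 genes against 1.58% of all genes. An unadjusted edgeR p under 0.05 with higher values in AppSAA was found for 4 of 10 (CD74, HLA-DMA, HLA-DOA and IFI30) against 5.99% of all genes. The median log2 fold change over the 10 genes was 0.15, and over all genes tested 0.0018. For the 7 classical class II chains tested it was 0.69, with 0 past the threshold in edgeR, 6 past it in DESeq2 and all 7 at an unadjusted p under 0.05.

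**Figure D1:**
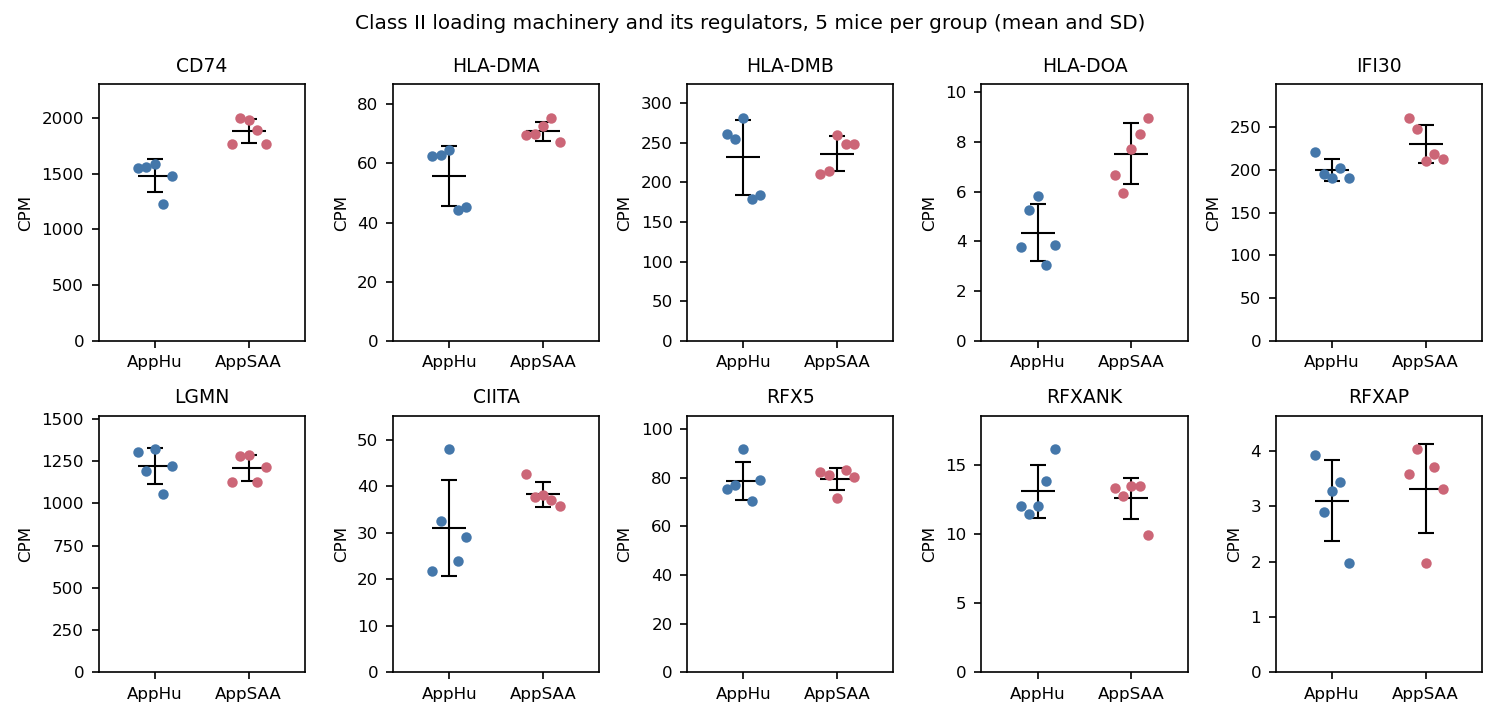
CPM of the 10 genes in each library, by group, on linear axes that start at 0. Points are mice, and bars give the mean and SD of 5 mice. The AppSAA points of CD74, HLA-DMA and HLA-DOA lie above all AppHu points, while those of HLA-DMB and LGMN lie among them.

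The upstream sequences of CD74 and the 3 HLA genes of the set are shown because class II promoters are known to hold an X box, bound by RFX, and a Y box, bound by NF-Y. RefSeq promoters on GRCh38.p14, 300 bases each, were found for 8 of the 10 genes, not for CIITA and LGMN. Each line gives the 120 bases before the start site, 5′ to 3′ on the reverse strand where all 4 genes lie. Capitals mark 2 short cores searched on both strands. The core of the Y box was read as ATTGG, which appears as CCAAT where it lies on the other strand. For the X box it was read as GCAAC, whose reverse form is GTTGC.
CD74, chr5:150412911-150413030: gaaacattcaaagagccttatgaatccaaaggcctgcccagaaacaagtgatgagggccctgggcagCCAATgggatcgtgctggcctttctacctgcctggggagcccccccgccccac
HLA-DMA, chr6:32953098-32953217: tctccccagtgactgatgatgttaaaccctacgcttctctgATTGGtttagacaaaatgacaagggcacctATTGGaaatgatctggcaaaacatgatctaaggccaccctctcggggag
HLA-DMB, chr6:32941029-32941148: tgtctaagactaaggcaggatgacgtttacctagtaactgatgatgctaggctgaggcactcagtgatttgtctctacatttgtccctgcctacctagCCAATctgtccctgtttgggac
HLA-DOA, chr6:33009592-33009711: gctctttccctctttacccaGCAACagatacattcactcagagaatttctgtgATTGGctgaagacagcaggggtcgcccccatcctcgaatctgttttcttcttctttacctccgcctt

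All 4 held a Y core, at -53 from the start site in CD74, at -79 and -49 in HLA-DMA, at -22 in HLA-DMB and at -67 in HLA-DOA. HLA-DOA alone of the 8 genes held GCAAC followed by ATTGG on 1 strand with 15 to 40 bases between them, with the GCAAC at -100 and a gap of 28 bases. Outside the set, HLA-DRB1 also held this pair, with a gap of 27 bases. The promoters of HLA-DOB, HLA-DPA1, HLA-DPB1, HLA-DQA1 and HLA-DQB1 did not. Over both strands, 6 of the 8 genes held a Y core against 34.6% of all 35116 promoters, and 4 held an X core against 33.6%. A gene was counted if any of its promoters held the core, and RFX5 and RFXANK had 3 promoters each. The share over all promoters counts each promoter once, so the units differ. The spaced pair was found in 0.89% of all promoters. These 5-letter cores are common, and a gene without a match may hold a variant of the box.

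CD74, the invariant chain, had the highest level of the set. It lies on chromosome 5 from 150401637 to 150412969 on the reverse strand in GENCODE 44. AppHu libraries had 1549, 1563, 1586, 1229 and 1483 CPM (replicates 3, 4, 6, 7 and 8), and AppSAA libraries 1770, 2001, 1982, 1891 and 1770 CPM (replicates 4 to 8). The lowest AppSAA library was thus above the highest AppHu library, and AppHu replicate 7 stood below the rest of its group. The means were 1482 ± 147 and 1883 ± 111 CPM (SD, n = 5 each), which ranked CD74 at 45 among human genes in AppHu and at 32 in AppSAA. Its log2 fold change was 0.35 (standard error 0.072, edgeR adjusted p = 0.0972, DESeq2 adjusted p = 0.00878), or 27.0% more. Over all alternatives it ranged from 0.28 to 0.39, with an adjusted p of 0.00878 to 0.317. CD74 shared no exon base with another GENCODE 44 gene.

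HLA-DMA and HLA-DMB encode the α and β chains of HLA-DM, and they lie side by side on chromosome 6 (32948613 to 32969094 and 32934629 to 32941028, reverse strand). HLA-DMA had 62.5, 62.7, 64.6, 44.1 and 45.2 CPM in AppHu and 69.5, 69.8, 72.6, 75.4 and 67.2 CPM in AppSAA, in the same order of libraries. The groups did not overlap, and AppHu replicates 7 and 8 stood below the other 3. Its log2 fold change was 0.34 (standard error 0.11, edgeR adjusted p = 0.296, DESeq2 adjusted p = 0.156). HLA-DMB had 261, 254, 281, 179 and 184 CPM in AppHu and 211, 215, 259, 248 and 248 CPM in AppSAA. Here every AppSAA library lay within the range of AppHu. Its log2 fold change was 0.026 (standard error 0.13, edgeR adjusted p = 0.974).

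The proportion of the chains of this dimer was also read within each library. HLA-DMB had 4.18, 4.06, 4.36, 4.05 and 4.07 counts for each count of HLA-DMA in AppHu and 3.03, 3.08, 3.57, 3.29 and 3.69 in AppSAA. The means were 4.14 ± 0.131 and 3.33 ± 0.293 (SD, n = 5 each), and the groups did not overlap. This ratio was picked after its values had been seen and is given without a test. In GENCODE 44, HLA-DMA shares 2.18% of its exon bases with BRD2 on the other strand, a gene with a median of 5243 counts, and an unnamed gene on the same strand shares 6.35% of those of HLA-DMA and 9.50% of those of HLA-DMB. Their counts are uncertain to that extent.

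HLA-DOA encodes the α chain of HLA-DO, the inhibitor of HLA-DM, and lies on chromosome 6 from 33004182 to 33009591 on the reverse strand. It was among the least counted members, with 101 to 207 counts in AppHu and 157 to 276 in AppSAA. AppHu libraries had 3.78, 5.27, 5.81, 3.05 and 3.84 CPM and AppSAA libraries 6.69, 5.97, 7.72, 8.34 and 8.96 CPM. The lowest AppSAA library, replicate 5, was just above the highest AppHu library, replicate 6. The log2 fold change of 0.79 (standard error 0.19, edgeR adjusted p = 0.154, DESeq2 adjusted p = 0.00994) was the largest of the 10. It ranged from 0.68 to 1.07 over all alternatives, and the adjusted p from 0.00994 to 0.355. HLA-DOB, the β chain that HLA-DO needs, had 0 to 12 counts per library and was not tested.

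IFI30, the lysosomal thiol reductase GILT that opens disulfide bonds of antigens, had 190 to 221 CPM in AppHu and 211 to 261 CPM in AppSAA. The groups overlapped, with all 5 AppSAA libraries above the AppHu median and 2 above the AppHu maximum. Its log2 fold change was 0.21 (standard error 0.074, edgeR adjusted p = 0.355, DESeq2 adjusted p = 0.290). LGMN, the asparaginyl endopeptidase legumain, had 1053 to 1319 CPM in AppHu and 1128 to 1289 CPM in AppSAA. Its log2 fold change was -0.012 (standard error 0.069, edgeR adjusted p = 0.977). Per kilobase of the canonical GENCODE 44 transcript, mean levels in AppHu were 897 CPM for CD74, 616 for LGMN, 202 for IFI30, 172 for HLA-DMB, 51.1 for HLA-DMA and 1.26 for HLA-DOA. The order of these 6 genes was the same in AppSAA, at 1139, 610, 233, 175, 64.9 and 2.17 CPM per kilobase.

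Of the regulators, CIITA varied most between AppHu mice. It lies on chromosome 16 from 10866222 to 10943021 on the forward strand. AppHu libraries had 21.7, 32.5, 47.9, 23.9 and 29.1 CPM and AppSAA libraries 42.7, 37.7, 38.0, 37.1 and 35.7 CPM. AppHu replicate 6 was the highest of all 10 libraries, and the other 4 AppHu libraries were lower than all AppSAA libraries. The log2 fold change was 0.30 (standard error 0.18, edgeR adjusted p = 0.641), and without AppHu replicate 6 it was 0.51 (adjusted p = 0.135 in edgeR). CIITA is transcribed from several promoters, which counts per gene do not tell apart. DEXI, a gene on the other strand with a median of 94 counts, shares 10.75% of the exon bases of CIITA. An unnamed gene on the same strand shares 10.54%.

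RFX5, the DNA-binding subunit, had 78.7 ± 7.84 CPM in AppHu and 79.6 ± 4.57 CPM in AppSAA (SD, n = 5 each), and its log2 fold change was 0.015 (standard error 0.076, edgeR adjusted p = 0.974). RFXANK, which bridges the subunits, had 13.1 ± 1.91 and 12.6 ± 1.50 CPM, and its log2 fold change was -0.056 (standard error 0.13, edgeR adjusted p = 0.936). RFXAP, the smallest in counts with 47 to 117 per library, had 3.11 ± 0.732 and 3.32 ± 0.797 CPM (log2 fold change 0.10, standard error 0.23, adjusted p = 0.938 in edgeR). The groups overlapped for all 3 subunits. RFXANK shares 14.5% of its exon bases with BORCS8 and 8.83% with NR2C2AP, both on the other strand. As the strand setting of the counting is not stated, part of the RFXANK counts is uncertain. For IFI30, GENCODE 44 also assigns 42.5% of the exon bases to a read-through gene on the same strand. Part of its counts is thus uncertain under any strand setting.

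**Figure D2:**
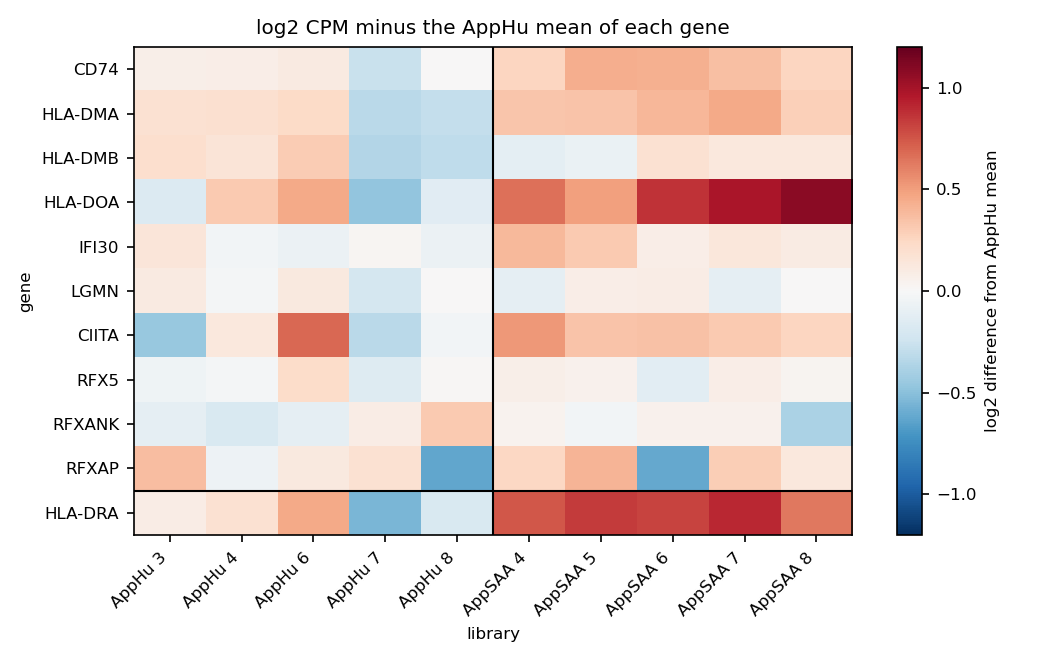
Log2 CPM of the 10 genes, and of HLA-DRA for reference, in each library (columns) minus the AppHu mean of the gene (rows). Red is above and blue below that mean. AppHu replicate 6 was the highest AppHu library for 7 of the 10 genes and replicate 7 the lowest for 6, and the AppSAA columns are red for CD74, HLA-DMA, HLA-DOA and HLA-DRA.

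Within AppHu the same 2 libraries often held the extremes of the class II genes. AppHu replicate 6 had the highest level of 7 of the 10 genes and of all 7 classical chains, against 24.8% of all genes tested. AppHu replicate 7 had the lowest level of 6 of the 10 and of all 7 chains, against 21.1% of all genes. The border macrophage markers varied in part with the same libraries. Of the 7, 4 were highest in AppHu replicate 6 (CD163, LYVE1, F13A1 and CD209) and 5 lowest in replicate 7 (MRC1, LYVE1, F13A1, CD209 and STAB1). LYVE1, for example, was at 592 CPM in replicate 6 and 397 CPM in replicate 7, and F13A1 at 178 and 35.6 CPM. SIGLEC1 went the other way and was highest in replicate 7, at 92.2 CPM. MRC1 and STAB1 were highest in replicate 3, and CD163 was lowest in replicate 8. The part of border macrophages in the class II values was not tested. The spread between mice, as the coefficient of variation of CPM, was smaller in AppSAA than in AppHu for 8 of the 10 genes and for 45.8% of all genes. It was 33.4% in AppHu and 6.95% in AppSAA for CIITA, 18.3% and 4.44% for HLA-DMA, and 20.4% and 9.29% for HLA-DMB. IFI30 and RFXAP were the exceptions, at 6.38% and 9.80% and at 23.6% and 24.0%.

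Of the 9 classical α and β chains, the cargo of this machinery, 7 were tested, and all 7 had a positive log2 fold change, with 0 past the threshold in edgeR. HLA-DRA stood at a log2 fold change of 0.75 (standard error 0.15, edgeR adjusted p = 0.0777), HLA-DPA1 of 0.68, HLA-DPB1 of 0.69, HLA-DQB1 of 0.64 and HLA-DRB1 of 0.47. HLA-DRB5 stood at 0.76 (standard error 0.13, edgeR adjusted p = 0.0548, DESeq2 adjusted p = 5.29e-05). Of the 7 tested, 6 did not overlap between groups, against 1.58% of all genes in that direction. The same 6 passed in DESeq2, against 0.990% of all genes in that direction. HLA-DQA1 was the exception in both (0.88, edgeR adjusted p = 0.389, DESeq2 adjusted p = 0.187). HLA-DQA2 and HLA-DQB2 had at most 1 count in any library. HLA-DRB1 and HLA-DRB5 are near-identical, so their counts are uncertain.

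**Figure D3:**
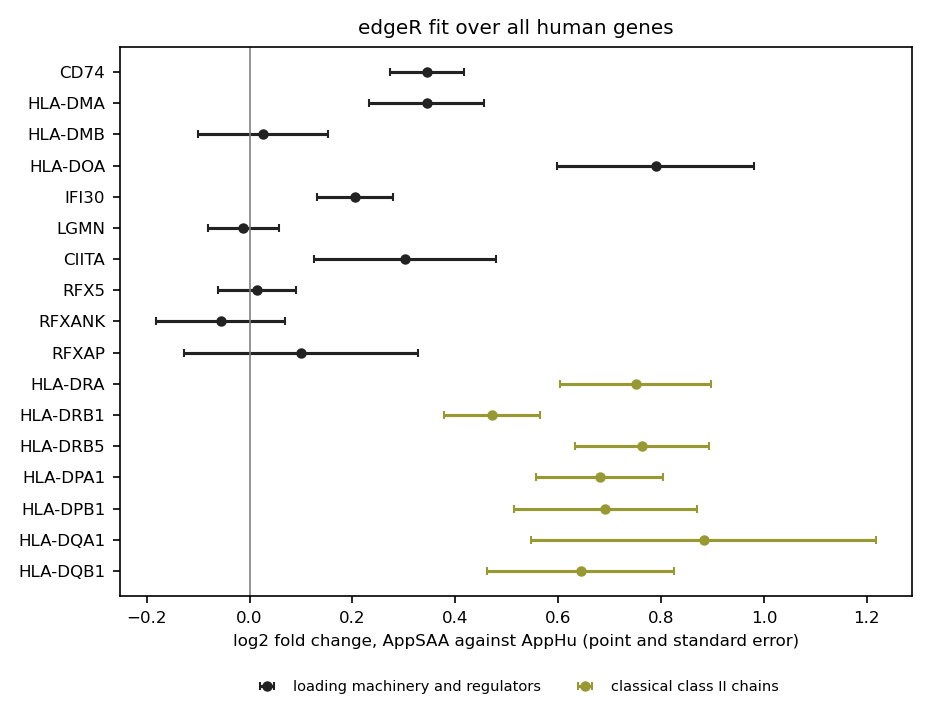
Log2 fold changes (x axis, AppSAA against AppHu) with standard errors from edgeR for the 10 genes and the 7 classical class II chains tested. The chains lie between 0.47 and 0.88, CD74 and HLA-DMA near 0.35, and the standard errors of HLA-DMB, LGMN and the RFX subunits span 0.

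Ratios of counts within each library, which do not depend on library size, set machinery genes against HLA-DRA or HLA-DOA. HLA-DRA had a larger log2 fold change (0.75) than HLA-DRB1 (0.47), and ratios to HLA-DRB1 were not tested. The ratios therefore do not speak for all classical chains. Each ratio was tested by exact permutation, two-sided, over all splits of 5 against 5 mice, adjusted by Benjamini-Hochberg over 6 ratios. The smallest p this design allows is 0.00794. The higher HLA-DRA of AppSAA was known when the ratios were chosen, so a fall against it is no independent support of that change.

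All 6 ratios were lower in AppSAA and passed this test. CD74 had a median of 10.0 counts for each count of HLA-DRA in AppHu (7.95 to 12.3) and of 7.71 in AppSAA (6.94 to 7.83). The groups did not overlap, and the log2 difference was -0.44 (standard error 0.12, exact permutation p = 0.00794, adjusted 0.0119). HLA-DMA to HLA-DRA fell from a median of 0.379 (0.324 to 0.443) to 0.284 (0.269 to 0.298), a log2 difference of -0.42 (standard error 0.082), again without overlap and with the same p. HLA-DMB to HLA-DRA fell the most of the 4 ratios to HLA-DRA, from 1.54 (1.41 to 1.79) to 0.910 (0.828 to 1.10), a log2 difference of -0.74 (standard error 0.10, exact permutation p = 0.00794, adjusted 0.0119). Counts of HLA-DMB exceeded those of HLA-DRA in all 5 AppHu libraries and in 2 of 5 AppSAA libraries.

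CIITA to HLA-DRA went from a median of 0.227 (0.141 to 0.240) to 0.149 (0.136 to 0.175). The groups overlapped, as AppHu replicate 3 lay among the AppSAA libraries, and the log2 difference was -0.43 (standard error 0.16, exact permutation p = 0.0476, adjusted 0.0476). This call was lost without any 1 of AppHu replicates 4, 6, 7 and 8 or of the 5 AppSAA libraries (log2 difference -0.48 to -0.37, adjusted exact permutation p of 0.0635 to 0.0952), and with HLA-DPA1 in place of HLA-DRA (-0.34, adjusted exact permutation p = 0.111). It held without AppHu replicate 3, at -0.56.

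Against the inhibitor chain, HLA-DMB to HLA-DOA fell from a median of 48.3 (47.8 to 68.8) to 31.4 (27.6 to 35.9), a log2 difference of -0.77 (standard error 0.12, exact permutation p = 0.00794, adjusted 0.0119). HLA-DMA to HLA-DOA fell from 11.9 (11.1 to 16.5) to 9.38 (7.49 to 11.7), a log2 difference of -0.45 (standard error 0.15, exact permutation p = 0.0159, adjusted 0.0190), with overlap. The values of HLA-DOA and HLA-DMB were likewise known when the ratios were chosen, so these ratios largely restate the higher HLA-DOA and are no independent support of it. Since HLA-DO also needs HLA-DOB, which was barely counted, these ratios concern 1 chain of the inhibitor only.

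**Figure D4:**
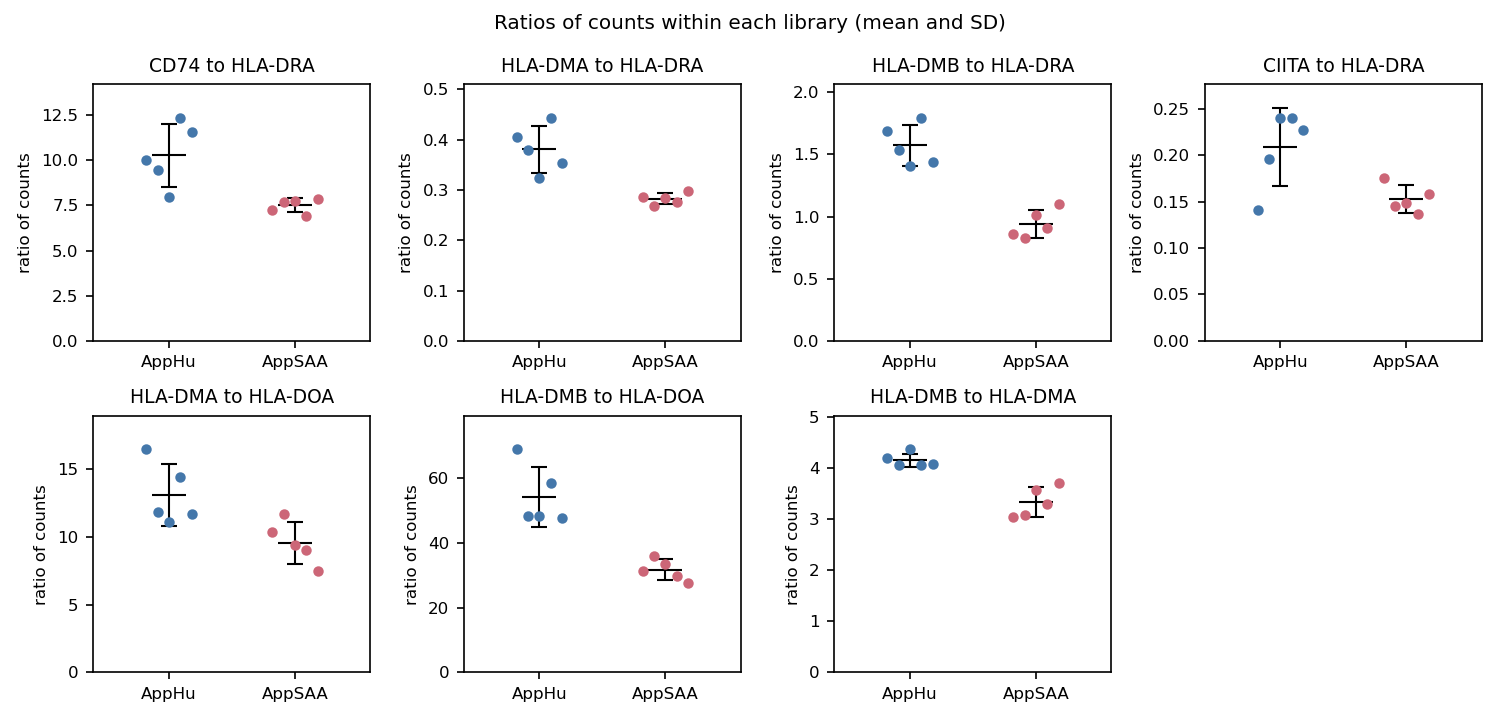
Ratios of counts within each library for the 6 pairs tested and for HLA-DMB to HLA-DMA, which was not tested, on linear axes that start at 0. Points are mice, and bars give the mean and SD of 5 mice. AppSAA libraries lie below AppHu libraries without overlap for CD74, HLA-DMA and HLA-DMB against HLA-DRA and for HLA-DMB against HLA-DOA.

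Partners of the machinery were looked up in lists. Of the 10 endolysosomal processing enzymes and inhibitors tested, 0 passed in edgeR or DESeq2 and 0 had an unadjusted p under 0.05. Their median log2 fold change was -0.080. CTSS, the cathepsin that makes the last cut of CD74 in antigen-presenting cells, was at -0.097 (standard error 0.060), and CTSL, a related cathepsin, at -0.068 (standard error 0.055). Of the 9 enhanceosome partners and cofactors of CIITA, 0 passed in edgeR. NLRC5, the class I counterpart of CIITA, had the largest log2 fold change of that list at 0.60 (standard error 0.16, edgeR adjusted p = 0.192, DESeq2 adjusted p = 0.0328), and it was the 1 of the 9 at an unadjusted p under 0.05. The other RFX factors tested, 4 of 7, ranged from -0.11 to 0.072, with 0 past the threshold in edgeR or DESeq2 and 0 at an unadjusted p under 0.05.

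CIITA is induced by interferon-γ. The list of inducers of CIITA holds genes of this route and also other factors, such as SPI1 and USF1. Of its 9 genes tested, 7 had a positive and 2 a negative log2 fold change. Of these, 0 passed in edgeR or DESeq2, 0 had an unadjusted p under 0.05, and the log2 fold changes ranged from -0.16 to 0.16 with a median of 0.033. IFNGR1, a chain of the receptor, was at 0.083 (standard error 0.060, edgeR adjusted p = 0.733). IRF8, a factor of myeloid cells, was at -0.16 and rested on AppSAA replicate 5, which had 260 CPM against 949 to 1203 CPM in the other 4, and without which it was at 0.073. IRF1, an activator of CIITA, was at 0.084 and rested on AppSAA replicate 4, which had 48.1 CPM against 29.7 to 30.4 CPM, and without which it was at -0.081.

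Among the 4 genes listed for class II surface turnover (CD83, CD86, MARCH1 and MARCH8), CD83 rose (log2 fold change 1.04, standard error 0.097, adjusted p = 0.00134 in edgeR). CD83 counters the ubiquitin ligase MARCH1, which sends class II and CD86 to lysosomes. MARCH8, a related ligase that also acts on class II, was at 0.30 (standard error 0.11, unadjusted p = 0.0203, edgeR adjusted p = 0.385), with 4 of 5 AppSAA libraries above the AppHu maximum. MARCH1 and CD86 did not pass either, at 0.017 and -0.13 (standard errors 0.054 and 0.067). Of the receptors that pair with surface CD74, CD44 had 3.93 ± 1.38 CPM in AppHu and 13.1 ± 4.85 CPM in AppSAA (SD, n = 5 each), and its log2 fold change was 1.73 (standard error 0.30, edgeR adjusted p = 0.0548, DESeq2 adjusted p = 3.21e-06). CXCR4 was at 0.60 (adjusted p = 0.328 in edgeR) and CXCR2 at 0.33 (adjusted p = 0.426 in edgeR). The ligands MIF and DDT had at most 11 counts in any library and were not tested. As the annotation release and the handling of reads with several matches are not given, these counts do not show that the ligands are absent.

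Reads assigned to mouse genes were counted apart, and their source was not tested. Mouse Cd74 had 32 to 783 counts per library, 0.0555 to 1.30 for each 100 counts on human CD74, and was at a log2 fold change of 0.052 (standard error 0.63, edgeR adjusted p = 0.991). Mouse Lgmn had 743 to 1393 counts, 2.05 to 3.97 for each 100 on human LGMN, and Rfxank 4.18 to 11.4 for each 100 on RFXANK. Mouse Ciita was at 0 in 6 of 10 libraries. Of 9376 mouse genes tested, 0 passed in edgeR, with 878 at an unadjusted p under 0.05, and 12 passed in DESeq2.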

How the data were processed

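Bulk RNA-seq libraries of sorted human microglia from 10 mouse brains were prepared with a SMART-Seq kit. The authors aligned single reads with STAR 2.7.11a to a combined mm10 and GRCh38 genome after FastQC 0.11.9 and counted them with featureCounts 2.0.1, and the deposited values are raw counts per gene without normalization. The annotation release, the strand setting and the handling of reads with several matches are not given in the sources used here. Groups came from the sample labels.

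Human genes that reached 10 counts in 6 or more of the 10 libraries were tested with edgeR 4.0.16 (quasi-likelihood test, TMM factors from human counts, R 4.3.3), with Benjamini-Hochberg adjustment over all 15455 genes and a threshold of 0.05. CPM are human counts scaled by TMM-corrected human library size. SDs are over 5 mice, and p-values measure the spread between mice grafted with cells of 1 line. DESeq2, the tool of the study, was run as an alternative in version 1.42.0, as was limma 3.58.1. Ratios were log2 of counts plus 0.5, compared by exact permutation (scipy 1.17.1). The edgeR and DESeq2 scripts were tested on simulated data. All pairs of libraries within a group differed by more than sampling noise. The genes, lists and ratios were chosen with earlier results of these data known. Genes named are these 10, members of the lists described (class II chains, partners of CIITA, other RFX factors, inducers, processing enzymes, surface turnover, CD74 ligands and co-receptors, mouse orthologues, cell type markers) and the 5 genes closest to CD74 by correlation. One gene of the list of inducers is not reported here. Human gene positions are from GENCODE 44 on GRCh38, and promoters are from RefSeq.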

Additional observations from a re-analysis of the deposited data

Results flagged for a closer look

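In 7 of 88 sets of 5 values checked, each from 1 group of mice, 1 library lay far from the other 4. Chance gives about 1 in 20 for independent sets. These sets come from the same 10 libraries and are not independent, so the rates cannot be set against each other. CD74 was lowest in AppHu replicate 7, at 1229 CPM against 1483 to 1586 CPM in the rest of the group. RFX5 was lowest in AppSAA replicate 6, at 71.6 CPM against 80.1 to 82.9 CPM. RFXANK was lowest in AppSAA replicate 8, at 9.97 CPM against 12.7 to 13.5 CPM. NLRC5 was highest in AppSAA replicate 4, at 51.0 CPM against 27.7 to 33.7 CPM. IRF1 was highest in AppSAA replicate 4, at 48.1 CPM against 29.7 to 30.4 CPM, and within AppHu in replicate 8, at 34.7 CPM against 30.6 to 31.3 CPM. IRF8 was lowest in AppSAA replicate 5, at 260 CPM against 949 to 1203 CPM.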

How the results depend on the processing

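Against 12 human genes past the threshold in edgeR, 215 passed with DESeq2, 52 with limma-voom, 32 without the filter, 33 with at least 100 counts in 6 libraries, 1 with the library total as covariate, 5 with the mouse share as covariate and 19 with edgeR's newer mode, which was added after seeing the data. Leaving out 1 library gave 2 to 34. Of the 10 class II loading genes, 2 passed with DESeq2 and 0 in every other setting. For mouse genes DESeq2 gave 12 against 0. Same-numbered mice correlated at 0.06, 0.03, 0.18 and 0.11 (replicates 4, 6, 7 and 8) in their deviations from the group means, and 3 of these 4 AppHu libraries correlated best with their own number. The labels give no meaning to the number, and the replicate block gave 59 human genes.

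Among the genes whose alternatives were tabulated, direction turned for LGMN (0.0051 with upper-quartile factors, 0.057 with the mouse share), RFX5 (-0.0020 with the replicate block), RFXAP (-0.14 with the mouse share), IRF1 (-0.028 with the mouse share), IRF8 (0.083 with the replicate block) and MARCH1 (-0.036 with the library total), and for others when 1 library was left out. None of these genes passed a threshold in any of these settings. Leaving out 1 library moved HLA-DMB from -0.054 to 0.11, LGMN from -0.061 to 0.018, RFX5 from -0.022 to 0.075, RFXANK from -0.10 to 0.029, RFXAP from -0.025 to 0.24, IRF1 from -0.081 to 0.13, IRF8 from -0.30 to 0.073 and MARCH1 from -0.0032 to 0.052. The log2 ratio of CIITA to HLA-DRA ranged from -0.56 to -0.37 and was -0.34 against HLA-DPA1. The cause was not tested. The other 5 ratios passed their exact permutation test in all settings run, with adjusted p up to 0.0381. The only classical chains used in these settings were HLA-DRA and HLA-DPA1. Depth limits RFXAP and HLA-DOA, at 47 to 276 counts per library.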

Other observations

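The genes whose log2 CPM followed that of CD74 most closely over the 10 libraries, each centred on its group mean, were CLIC2 (Pearson r 0.97, Spearman rho 0.93), UFM1 (0.95 and 0.83), C3AR1 (0.95 and 0.95), STK26 (0.95 and 0.98) and RECQL (0.93 and 0.94). HLA-DRA ranked 67 of 15445 genes by this measure, at r = 0.86. Among the loading genes LGMN was closest to CD74 (r = 0.84), followed by HLA-DMA (0.74), HLA-DMB (0.67), HLA-DOA (0.49) and CIITA (0.39), while IFI30 was at -0.10. These values describe 10 libraries that differ in depth, and CLIC2, at about 1 CPM, rests on few counts.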
